A study of Rattus norvegicus with 88 samples.

Results

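The miR-181 family was followed in rat liver from 2 to 104 weeks of age. Its 4 members, rno-miR-181a, rno-miR-181b, rno-miR-181c and rno-miR-181d, were taken by name from the 677 miRNAs of the array, and all 4 were among the 314 miRNAs counted as expressed because at least 1 array detected them. miRNAs are short RNAs that guide the Argonaute proteins to partly complementary sites in messenger RNAs, mostly through the seed, the bases that follow the first base of the miRNA, and lower the stability and translation of those targets. Members of a family share a seed and can therefore bind many of the same sites. The miR-181 family is best known for its part in lymphocyte development and T cell receptor signalling. In liver it has been studied in hepatic progenitor-like tumour cells, in fibrosis and in lipid metabolism.

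Liver tissue, labelled as whole liver, of untreated male and female Fischer F344 rats was sampled at 9 ages. The rats were 2 weeks old, 5, 6 or 8 weeks old, 15 or 21 weeks old, and 52, 78 or 104 weeks old. The 88 arrays, 1 animal each, came from 45 females and 43 males, with 5 arrays in each sex at each age except 4 in males of 5 and of 104 weeks. All animals were of the same inbred strain, and there was no treatment arm. Ages were also pooled into 3 classes, with rats of 2 weeks called young, those of 52 weeks and over called old, and all between called adult.

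The sequences are shown because the members differ by very few bases outside the seed, which bears on how far their signals can be told apart. All 4 matched the RefSeq table of the GRCr8 assembly. Capitals mark the seed, bases 2 to 8 counted from the 5′ end.
rno-miR-181a: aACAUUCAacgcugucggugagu
rno-miR-181b: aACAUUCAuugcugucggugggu
rno-miR-181c: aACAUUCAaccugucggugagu
rno-miR-181d: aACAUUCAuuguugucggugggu
The seed ACAUUCA was shared by all 4 members and by no other of the 693 mature rat miRNA names in that table. With positions counted from the 5′ end, rno-miR-181b differed from rno-miR-181a by A9U, C10U and A21G. rno-miR-181d differed from rno-miR-181b by the single substitution C12U, and from rno-miR-181a by 4 (A9U, C10U, C12U and A21G). rno-miR-181c, 22 bases long where the other members have 23, equalled rno-miR-181a without base 11. How far the array's probes separate members this alike was not tested.

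The members lie in 3 pairs of hairpins, and all mature sequences listed are on the plus strand. On chromosome 13 the Mir181a-1 hairpin (GRCr8 chr13:52037067-52037166) stands 61 bases before Mir181b1 (chr13:52037228-52037337), both overlapping the lncRNA gene LOC108352541, and Mir181a-1 also overlaps the miRNA gene Mir3570. On chromosome 3, Mir181a2 (chr3:43025563-43025679) stands 986 bases before Mir181b2 (chr3:43026666-43026753), and both overlap the protein-coding gene Nr6a1, which encodes an orphan nuclear receptor, and the lncRNA gene LOC120101539. On chromosome 19, Mir181c (chr19:40888291-40888396) stands 77 bases before Mir181d (chr19:40888474-40888556), with no overlapping gene listed. The mature rno-miR-181a is made from 2 of these hairpins (chr3:43025601-43025623 and chr13:52037081-52037103), so its level cannot be assigned to either locus. The RefSeq table lists 1 mature locus for rno-miR-181b, although the Mir181b2 hairpin carries its name too, so its level cannot be assigned to 1 locus either. The other mature sequences were listed at chr13:52037263-52037285 for rno-miR-181b, chr19:40888314-40888335 for rno-miR-181c and chr19:40888484-40888506 for rno-miR-181d.

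Levels are normalized intensities, the total signal of a miRNA divided by the 75th percentile of the 314 expressed miRNAs on the same array, so that 1 is the level of that percentile. The percentile ranged from 28.1 to 289 raw units over the arrays, with a median of 62.1, and 43.0% of the 27632 values were undetected. The hepatocyte miRNA miR-122 was detected on all 88 arrays. A pair of arrays stood apart together, those of 78-week female 1 and 78-week male 6, which were singled out after their values had been seen. Of 15 miRNAs detected on exactly 2 of the 88 arrays, 8 were detected on this pair (let-7b*, miR-204, miR-211, miR-328b-3p, miR-349, miR-3550, miR-487b* and miR-99b*), and no other pair of arrays shared more than 2. The class comparisons and correlations are also given without the pair. Single arrays stood apart as well, with 7 miRNAs on 5-week female 2 and 6 on 15-week male 2 at least 4 times as high as on any other later array, against 6 on 78-week female 1 and 2 on 78-week male 6. Leaving out 5-week female 2 or 15-week male 2 alone changed no call of a member. Arrays were scanned in 5 runs of 1, 13, 30, 28 and 16 arrays, and each run of more than 1 array held several groups.

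The members differed in how often they were detected. rno-miR-181a was detected on 88 of 88 arrays, rno-miR-181b on 46, rno-miR-181d on 12 and rno-miR-181c on 11. Of the 10 arrays of 2-week livers, 10 detected rno-miR-181a, 9 rno-miR-181b, 8 rno-miR-181c and 6 rno-miR-181d. The array also carried the other strand of 6 hairpins (miR-181a-1*, miR-181a-2*, miR-181b-1*, miR-181b-2*, miR-181c* and miR-181d*), and none of these was detected on any of the 88 arrays. Each member was read by 2 probes, and where 1 of them was not detected the deposited total left it out. For rno-miR-181a this occurred on 6 arrays, where the total was 0.746 to 0.818 of the summed signal of both probes. For rno-miR-181b it occurred on 37 of 46 arrays, for rno-miR-181c on 7 of 11 and for rno-miR-181d on 7 of 12. The members were therefore also compared on the summed signal of both probes divided by the same percentile, a measure that exists whether or not a miRNA was called detected and that was added after the data had been seen. Levels are compared within a member and not between members, since each is read by probes of its own.

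rno-miR-181a was lower in the old livers than in the 2-week livers of both sexes, a direction that turned when arrays were scaled on all 677 miRNAs instead of the 314 expressed ones. In females the 2-week arrays read 0.904, 0.972, 0.983, 1.02 and 1.21, a mean of 1.02 ± 0.113 (SD, n = 5). In males they read 0.766, 0.770, 0.787, 0.918 and 1.12, a mean of 0.872 ± 0.153 (SD, n = 5). The lowest female value lay above 3 of the 5 male values.

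At 5 weeks the females read 0.631, 0.674, 0.706, 0.744 and 0.857 and the males 0.560, 0.659, 0.687 and 0.783. At 6 weeks the female values were 0.725, 0.744, 0.763, 0.811 and 0.989 and the male values 0.554, 0.758, 0.841, 0.944 and 1.02. At 8 weeks the females read 0.720, 0.748, 0.846, 0.959 and 1.01 and the males 0.727, 0.814, 0.872, 0.954 and 0.970. At all 3 of these ages the ranges of the sexes overlapped, and several arrays of 6 and 8 weeks lay within the range of the 2-week arrays of their sex. At 15 weeks the females read 0.489, 0.563, 0.565, 0.582 and 0.648 and the males 0.649, 0.684, 0.693, 0.743 and 0.840. At 21 weeks the female values were 0.476, 0.657, 0.770, 0.773 and 0.797 and the male values 0.400, 0.410, 0.603, 0.640 and 0.743. The sexes did not overlap at 15 weeks, where the lowest male stood just above the highest female, and at 21 weeks 3 of the 5 female arrays read above every male.

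In the old livers the group means lay between 0.553 and 0.609. At 52 weeks the females read 0.408, 0.541, 0.598, 0.670 and 0.681 and the males 0.497, 0.502, 0.542, 0.595 and 0.629. At 78 weeks the female values were 0.535, 0.545, 0.575, 0.581 and 0.659 and the male values 0.429, 0.518, 0.649, 0.712 and 0.724. At 104 weeks the females read 0.388, 0.554, 0.669, 0.694 and 0.738 and the males 0.506, 0.526, 0.611 and 0.661. No old array, of 15 in females and 14 in males, reached the lowest 2-week value of its sex. Among all later arrays 3 of 40 did so in females and 9 of 38 in males.

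**Figure D1:**
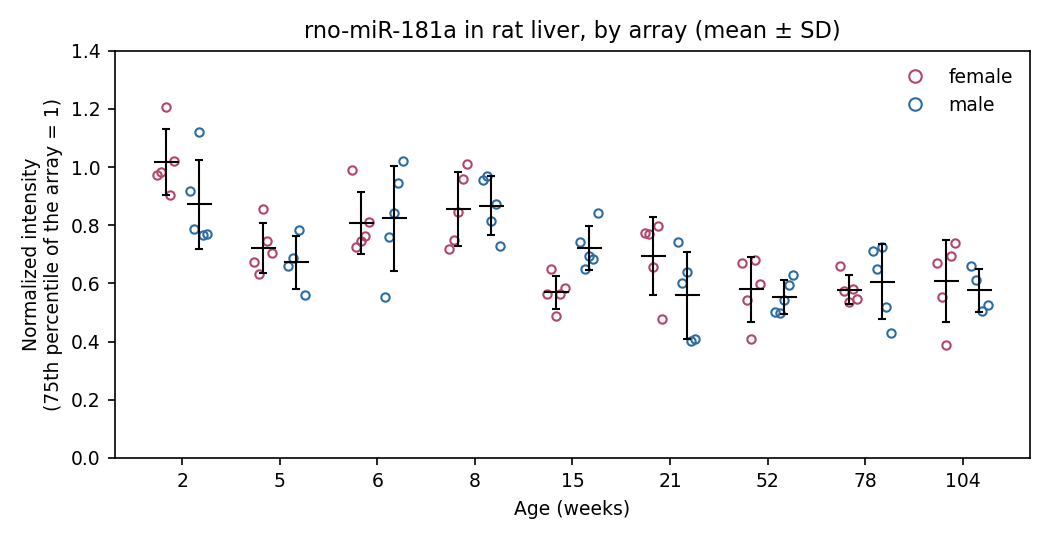
Normalized intensity of rno-miR-181a on each of the 88 arrays (points) by age in weeks, females and males side by side, with the mean and SD of each group. The 2-week means were 1.02 in females and 0.872 in males, and the means of 52, 78 and 104 weeks lay between 0.553 and 0.609 (the direction turned when arrays were scaled on all 677 miRNAs).

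By age class, the mean level of rno-miR-181a in females was 1.02 at 2 weeks, 0.730 ± 0.140 (SD, n = 25) in adults and 0.589 ± 0.101 (SD, n = 15) in old rats. In males it was 0.872, 0.731 ± 0.162 (SD, n = 24) and 0.579 ± 0.0889 (SD, n = 14). limma was fitted to log2 levels over all 314 miRNAs with Benjamini-Hochberg adjustment, and a miRNA was called when its adjusted p was below 0.05 and the difference reached 1.5-fold. Between young and old rats rno-miR-181a fell by 0.80 on the log2 scale in females (SE 0.137, adjusted p 2.44e-06), which is 1.75-fold, and by 0.59 in males (SE 0.156, adjusted p 0.00115), which is 1.51-fold. The male value lies close to the fold threshold, and it went below 1.5-fold when any 1 of 8 arrays was left out (range −0.63 to −0.50 over all arrays left out 1 at a time). Those arrays were 104-week males 4 and 5, 2-week males 1 and 3, 52-week males 1 and 5, and 78-week males 5 and 6. Without the pair of arrays that stood apart the male difference was −0.56. It was −0.53 on summed probe signals, −0.49 with the scanning run as a block (adjusted p 0.00402) and −0.56 with the slide as a random block (adjusted p 0.00138), each past the p threshold and short of the fold threshold. With those blocks the female difference was −0.88 and −0.79 and stayed past both thresholds. Under normexp background correction the differences were −0.32 in females and −0.14 in males, past the p threshold (adjusted p 0.000335 and 0.0259) and short of the fold threshold, so neither was called.

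The adult class lay between the other two. Adult minus young was −0.50 in females (SE 0.130, adjusted p 0.00115), a 1.41-fold difference that passed the p threshold but not the fold threshold (−0.60 with the scanning run as a block, past both), and −0.28 in males (SE 0.148, adjusted p 0.117). Old minus adult was −0.30 in females (SE 0.0868, adjusted p 0.0178) and −0.32 in males (SE 0.101, adjusted p 0.0339), both 1.24-fold and below the fold threshold by limma. The male difference missed the p threshold with the scanning run as a block (adjusted p 0.0510), with the replicate number as a block (0.0591) and without the pair of arrays that stood apart (−0.28, adjusted p 0.0644). Under normexp both missed it, at −0.12 (adjusted p 0.0978) in females and −0.10 (adjusted p 0.158) in males. Both comparisons with young rats use the same 2-week arrays and are not independent of each other. In the class comparisons 39.8% of all miRNAs tested were called between adult and young females and 49.7% between adult and young males. The shares were 45.9% and 48.7% between old and young, and 4.46% and 5.1% between old and adult. A call against the 2-week livers was therefore common on this array. The median log2 difference over all 314 miRNAs was 0.13 for adult minus young and 0.20 for old minus young in each sex, so rno-miR-181a moved against that median.

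These values depended on the scaling. With arrays scaled on the 103 miRNAs detected on every array, rno-miR-181a was lower still, at −1.63 for old minus young in females and −1.70 in males. With arrays scaled on all 677 miRNAs, old minus young was 0.04 in females and 0.55 in males, and adult minus young was 0.27 and 0.92 (adjusted p 0.0248 in males). On 36 of 88 arrays that last percentile was itself an undetected value. The median of all miRNAs from 2 weeks to later ages shifted by 0.17 in females and 0.15 in males under the scaling used here, by −0.08 and −0.26 on the miRNAs detected on every array, and by 0.60 and 0.63 on all miRNAs of the array. Within scanning runs that held 2-week arrays, later minus 2 weeks was −0.62, −0.71 and −0.80 in females and −0.39, −0.07 and −0.39 in males, each with 1 to 3 arrays of 2-week livers. Within runs, old minus adult was −0.97 (1 old array), −0.21, −0.29 and 0.05 in females and −0.27, −0.30, −0.19 and −0.33 in males.

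Over the 9 single ages rno-miR-181a differed in females (F test, adjusted p 8.68e-06) and in males (adjusted p 0.000351), where 57.3% and 54.1% of all miRNAs were called. Each sex gave 36 pairs of ages, and 14.2% of all miRNA and age pairs were called in females and 13.9% in males. In females 4 pairs were called for rno-miR-181a, those of 15, 52, 78 and 104 weeks against 2 weeks, with log2 differences of −0.84, −0.83, −0.81 and −0.77 (SE 0.147). The female difference at 21 weeks was −0.57 (adjusted p 0.00119, 1.48-fold) and at 5 weeks −0.50 (adjusted p 0.00614, 1.41-fold), both short of the fold threshold, and those at 6 and 8 weeks were −0.34 and −0.25. In males 6 pairs were called, 3 of them against 2 weeks, at 21 weeks (−0.67), 52 weeks (−0.65) and 104 weeks (−0.59). The 3 others were the same ages against 8 weeks, when the male mean was 0.867 ± 0.101 (SD, n = 5). On summed probe signals, which restore the probe left out of the totals of 21-week males 5 and 6 and 52-week male 1, the differences from 2 weeks were −0.51 at 21 weeks (1.42-fold) and −0.56 at 52 weeks (1.48-fold), both short of the fold threshold, and −0.59 at 104 weeks, still called.

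Leaving out the 2-week arrays, rno-miR-181a still differed over 5 to 104 weeks in males (adjusted p 0.00771), where 18.8% of all miRNAs and 3.99% of all miRNA and age pairs were called. The called pairs were 21, 52 and 104 weeks against 8 weeks, with log2 differences of −0.67 (adjusted p 0.0138), −0.65 (adjusted p 0.0137) and −0.59 (adjusted p 0.0301) by limma. On summed probe signals the first 2 were −0.51 and −0.56, short of the fold threshold, and 104 against 8 weeks alone was called. In females the F test gave an adjusted p of 0.00521, but no pair of ages passed both thresholds, so it was not called there, while 22.9% of all miRNAs were. It was called in females when any 1 of 8 arrays was left out, 78-week female 1 among them (the others were 104-week female 8, 15-week female 2, 52-week females 1, 8 and 9, and 8-week females 2 and 3).

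Ordered by mean log2 level, the ages ran 2, 8, 6, 5, 21, 104, 78, 52 and 15 weeks in females and 2, 8, 6, 15, 5, 78, 104, 52 and 21 weeks in males. None of the 8 neighbouring pairs in either order passed the thresholds. The widest neighbouring gap in females was 0.25 between 2 and 8 weeks (SE 0.147, adjusted p 0.159 by limma), and in males 0.17 between 5 and 78 weeks.

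**Figure D2:**
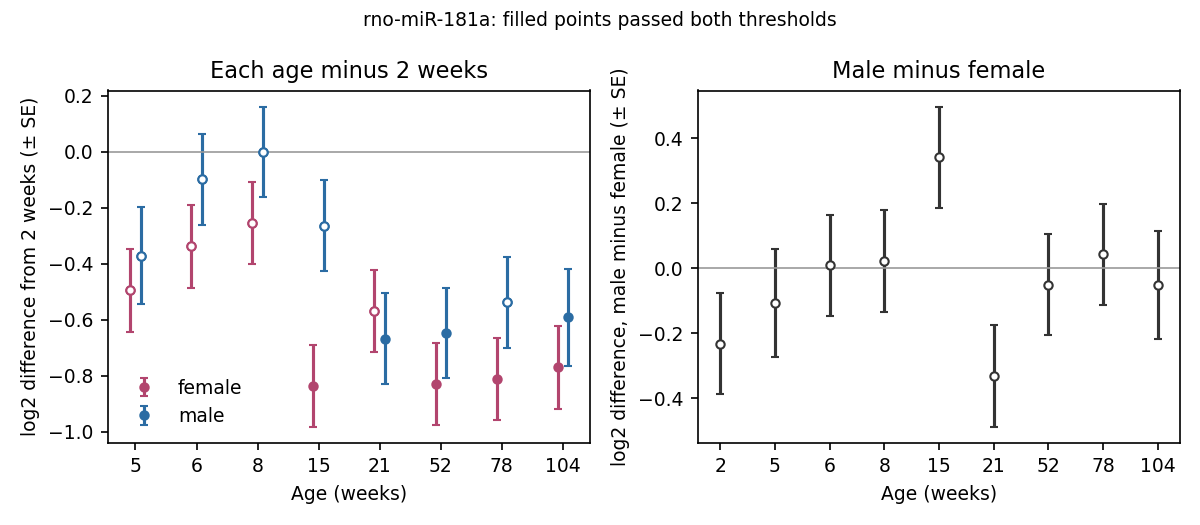
Log2 differences of rno-miR-181a with their SE, each later age minus 2 weeks by sex on the left (filled points passed both thresholds) and male minus female at each age on the right. The called female differences lie between −0.84 and −0.77, the called male ones between −0.67 and −0.59, and no sex difference was called (on all 677 miRNAs as the scale the direction against 2 weeks turned in both age classes of both sexes).

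No sex difference was called for any member at any age, out of 36 comparisons. Of all miRNAs, 18.8% were called at 2 weeks, 0% at 5, 0.637% at 6, 5.1% at 8, 9.24% at 15, 6.05% at 21, 6.69% at 52, 3.82% at 78 and 4.46% at 104 weeks. At 15 weeks rno-miR-181a was higher in males by 0.34 on the log2 scale, with an interval of 2 SE from 0.03 to 0.65 (adjusted p 0.148 by limma). At 21 weeks male minus female was −0.33, with an interval from −0.64 to −0.02 (adjusted p 0.290), and −0.17 on summed probe signals. At the other ages male minus female lay between −0.23 and 0.04. The age differences also did not differ between the sexes by the interaction test, with male minus female values of 0.22 (SE 0.171) for adult minus young, 0.21 (SE 0.181) for old minus young and −0.01 (SE 0.116) for old minus adult. Their intervals of 2 SE were −0.12 to 0.56, −0.15 to 0.57 and −0.24 to 0.22. None of 12 member interactions was called, while 29.9%, 26.4% and 3.18% of all miRNAs were.

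rno-miR-181c was detected mainly in the livers of 2-week rats. In females 4 of 5 arrays of 2 weeks detected it, at 0.0712, 0.0753, 0.101 and 0.107, against 1 of 40 later arrays, at 0.0559. In males 4 of 5 arrays of 2 weeks did so, at 0.0520, 0.0577, 0.0972 and 0.124, against 2 of 38 later arrays, at 0.0485 and 0.0798. The share of arrays with a detected value was higher at 2 weeks in both sexes by two-sided Fisher's exact test (adjusted p 0.00152 in females and 0.00381 in males, over 314 miRNAs). By the same test 12.1% of all miRNAs were called in females and 16.9% in males.

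rno-miR-181d was detected at 2 weeks on 3 of 5 female arrays against 4 of 40 later ones (exact test, adjusted p 0.136) and on 3 of 5 male arrays against 2 of 38 (adjusted p 0.0444). The male call was lost when any 1 of the 3 detecting 2-week males was left out. rno-miR-181b was detected on 5 of 5 arrays of 2-week females against 22 of 40 later ones (exact test, adjusted p 0.417) and on 4 of 5 against 15 of 38 in males (adjusted p 0.552). Its later detection also varied with the scanning run, at 0 of 1, 2 of 12, 14 of 27, 15 of 25 and 6 of 13 arrays.

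The 2-week arrays detected more miRNAs by their medians. They detected 196 to 237 of the 314 in females and 165 to 255 in males, with medians of 218 and 235, against medians of 179.5 and 164 at later ages. Their 75th percentiles were also brighter, with medians of 101 raw units in females and 133 in males against 64.9 and 52.6 later. The lowest normalized intensity that an array detected had medians of 0.0259 and 0.0202 at 2 weeks against 0.0423 and 0.0578 later. The part of this sensitivity in the detection counts was not tested. Absent detection of rno-miR-181c in a later liver is thus a bound and not an absence.

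**Figure D3:**
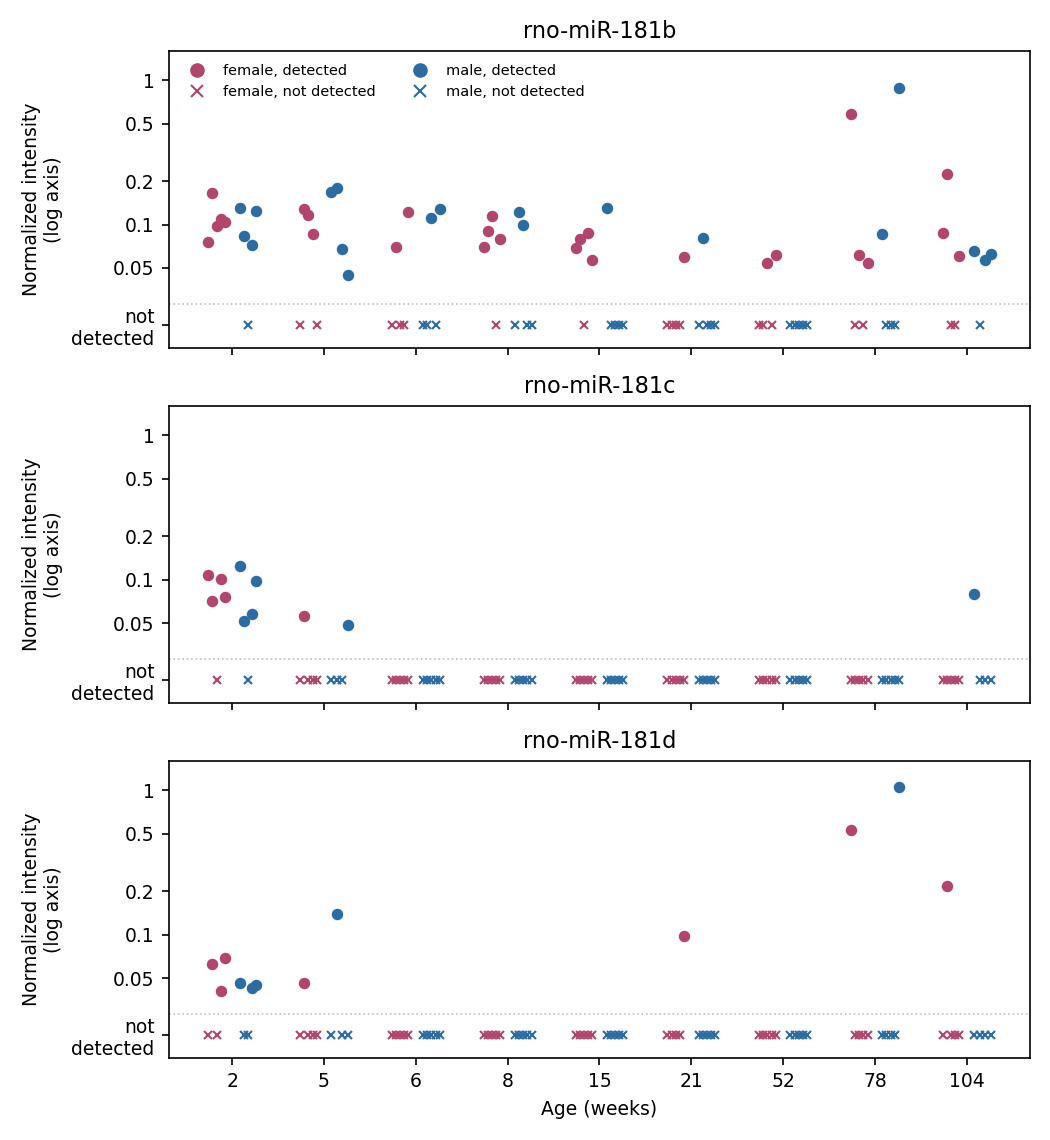
Normalized intensity (log axis) of rno-miR-181b, rno-miR-181c and rno-miR-181d on each array by age in weeks, females and males side by side, with crosses below the dotted line for arrays that did not detect the miRNA. For rno-miR-181c, 4 of 5 arrays of each sex detected it at 2 weeks and 3 of all 78 later arrays did.

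With undetected values set to the lowest normalized intensity, rno-miR-181c fell by 2.20 on the log2 scale from young to adult females (SE 0.255, adjusted p 4.75e-10) and fell by 2.29 from young to old females (SE 0.269, adjusted p 6.51e-10). In males it fell by 2.07 (SE 0.324, adjusted p 3.76e-07) and fell by 1.96 (SE 0.343, adjusted p 3.18e-06). The size of these differences is set by the substitute value. With the scanning run as a block they were −2.10 and −2.22 in females and −2.03 and −1.93 in males. With the array's lowest detected value in place of the common substitute, the female differences were −0.74 and −0.98 and still called, and the male ones were −0.29 (adjusted p 0.323 by limma) and −0.57 (adjusted p 0.0725) and no longer called. Under quantile normalization the differences were −0.57 and −0.59 in females and −0.35 and −0.30 in males, of which −0.59 alone reached 1.5-fold and was called. On the mean processed signal the male adult call was lost too (−0.90, adjusted p 0.106). Against the higher, on each array, of the lowest detected level and the summed signal of rno-miR-181c itself, the 2-week females were at least 1.12-fold higher than the 35 arrays of the 7 later ages at which no female array detected it. In males the same bound was below 1, so no fold is given. All 8 pairs with 2 weeks were called in each sex and no pair of later ages was.

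The summed probe signal of rno-miR-181c gave smaller differences of the same direction. In 2-week females it read 0.101, 0.107, 0.109, 0.111 and 0.117, and none of 40 later female arrays reached the lowest of these, the highest later array being at 0.0962. In 2-week males it ranged from 0.0873 to 0.124, with a median of 0.0972, and 4 of 38 later males reached the lowest of these. The groups therefore did not overlap in females and did in males. On this measure rno-miR-181c fell by 0.96 from young to adult females (SE 0.224, adjusted p 0.000273) and by 1.38 from young to old females (SE 0.237, adjusted p 2.1e-06). In males it fell by 0.67 (SE 0.210, adjusted p 0.00453) and by 0.79 (SE 0.222, adjusted p 0.00173). The share of all miRNAs called on this measure was 61.5% and 65% in females and 75.5% and 67.8% in males. The 2 probes separately gave 2-week means 1.97 and 2.54 times the later mean in females and 1.41 and 2.23 times in males, without the pair of arrays that stood apart. Within scanning runs the later arrays lay below the 2-week ones by −1.21, −1.04 and −1.11 in females and −0.90, −0.47 and −0.57 in males on the log2 scale. Under normexp background correction of the spot signals the direction turned, with adult minus young at 0.31 in females and 0.39 in males and old minus young at 0.18 and 0.30. Under that correction the median of all miRNAs rose by 0.39 in females and 0.47 in males from 2 weeks to later ages. The values of rno-miR-181c lay below that median in each sex.

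Over the 9 ages the summed probe signal of rno-miR-181c was called in females (adjusted p 1.01e-06) and not in males (adjusted p 0.0754), where 68.2% and 69.4% of all miRNAs were called. Among later ages it was called in females (adjusted p 0.00291) and not in males (adjusted p 0.739), with 25.5% and 20.7% of all miRNAs called. The female values of 5 weeks ranged from 0.0368 to 0.0962, with a median of 0.0860, and those of 52 weeks from 0.0119 to 0.0714, with a median of 0.0307. Old minus adult in females was −0.43 (adjusted p 0.0468 by limma), 1.35-fold and below the fold threshold. A difference between the sexes in this pattern was not tested on this measure.

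**Figure D4:**
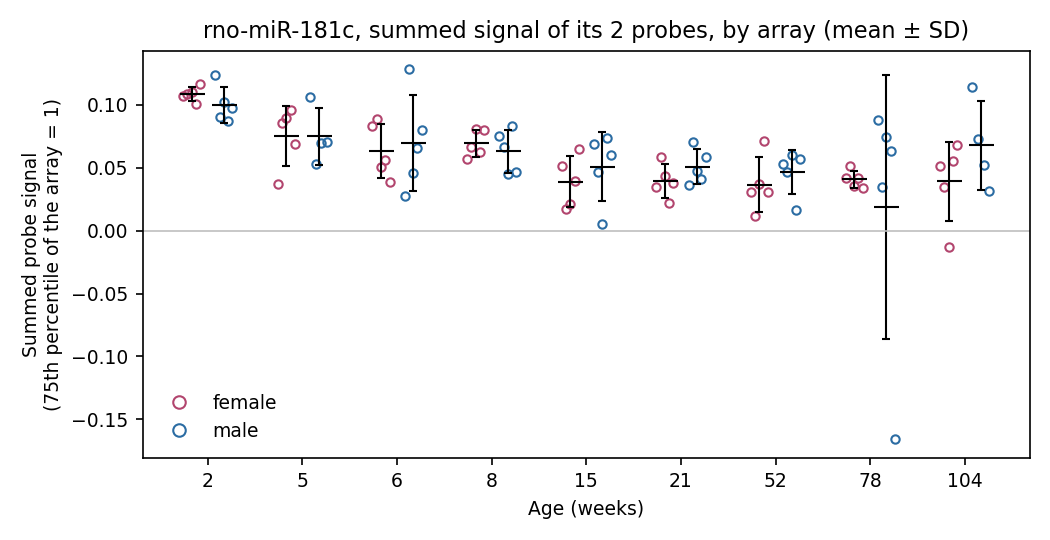
Summed signal of both probes of rno-miR-181c divided by the array's 75th percentile, on each array (points) by age in weeks and sex, with the mean and SD of each group. All 5 arrays of 2-week females (0.101 to 0.117) lay above the 40 later female arrays, and 1 later male array, 78-week male 6, read −0.166. Under normexp background correction the direction turned, while the median of all miRNAs rose by more.

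rno-miR-181b and rno-miR-181d were called in neither sex over the 9 ages (adjusted p 0.284 and 0.594 in females, 0.209 and 0.510 in males, F test by limma) nor between age classes. With arrays scaled on the miRNAs detected on every array, rno-miR-181b was called in all 4 comparisons with young rats (−1.92 and −1.93 in females, −1.70 and −1.84 in males, for adult and old) and rno-miR-181d in adult minus young (−1.18 in females and −1.23 in males), with adjusted p from 0.00589 to 0.0439. Detected values of rno-miR-181b at 2 weeks were 0.0752, 0.0977, 0.105, 0.110 and 0.164 in females and 0.0723, 0.0830, 0.124 and 0.129 in males. At 5 to 21 weeks they ranged from 0.0568 to 0.127 on 14 of 25 female arrays, and from 0.0448 to 0.180 on 10 of 24 male arrays. At 52 to 104 weeks 8 of 15 female arrays detected it, with a median of 0.0616, and 5 of 14 male arrays, with a median of 0.0652. The detected values of the old class lay lower by their medians, with the array of each sex that stood apart (0.583 and 0.884) far above. Among pairs of ages rno-miR-181b was called for 21 and 52 weeks against 2 weeks in females (−2.69, adjusted p 0.0148, and −2.25, adjusted p 0.0403) and for 52 weeks against 2 and against 5 weeks in males (−2.43, adjusted p 0.0377, and −3.03, adjusted p 0.0476). These sizes come from the substitute for undetected values, and on summed probe signals none of the 4 pairs was called (−0.35 and −0.70 in females, −0.13 and −0.17 in males).

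On summed probe signals neither rno-miR-181b nor rno-miR-181d was called between age classes. The median of all miRNAs on this measure rose by 0.58 in females and 0.84 in males from 2 weeks to later ages. rno-miR-181b lay between 0.110 and 0.164 in 2-week females and between 0.103 and 0.180 in 2-week males, and 24 of 40 later females and 26 of 38 later males reached the lowest 2-week value of their sex. rno-miR-181d lay between 0.0531 and 0.107 in 2-week females and between 0.0635 and 0.0699 in 2-week males, and 34 of 40 and 28 of 38 later arrays reached the lowest of these. For both members all 2-week values lay within the range of the later arrays of their sex, and for rno-miR-181d in males 0 of 5 2-week arrays lay above the later median. The 2 probes of rno-miR-181d disagreed, with 2-week means at 0.798 and 1.18 times the later mean in females and 0.424 and 0.803 times in males, without the pair of arrays that stood apart. Over all arrays old minus young of the summed signal, with an interval of 2 SE, was −0.36 (−0.90 to 0.18) in females and −0.11 (−0.85 to 0.62) in males for rno-miR-181b, and 0.08 (−0.58 to 0.75) and 0.44 (−0.43 to 1.31) for rno-miR-181d. Without the pair these were −0.54 (adjusted p 0.0128 by limma, 1.45-fold and short of the fold threshold) and −0.34 for rno-miR-181b, and −0.11 and 0.17 for rno-miR-181d.

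The pair of arrays that stood apart carried the highest values of both members. On 78-week female 1 rno-miR-181b read 0.583 and rno-miR-181d 0.530, and on 78-week male 6 they read 0.884 and 1.06. For rno-miR-181a the female array gave 0.659, above the other 78-week females (0.535 to 0.581). The male array gave 0.429, below the other 78-week males (0.518 to 0.724), and its summed signal of both probes was 0.575. On 78-week male 6 the summed level of the erythroid markers (miR-451 and miR-144) was 28 against 10.71 to 17.0 on the other 4 arrays of that group, that of the 5 stellate and smooth muscle markers was 9.82 against 13.0 to 17.7, and that of the 5 biliary markers was 0.535 against 1.87 to 2.73. On 78-week female 1 the erythroid markers were at 7.74 against 11.5 to 17.5 and the biliary markers at 3.12 against 1.37 to 2.40. The part of these levels in the result was not tested. Without both arrays rno-miR-181b passed the thresholds in females by limma for adult minus young (−1.57, adjusted p 0.0478) and old minus young (−1.83, adjusted p 0.0284). rno-miR-181d then passed for adult minus young in females (−1.14, adjusted p 0.0297) and for adult (−0.98, adjusted p 0.00639) and old minus young in males (−1.13, adjusted p 0.00355). With these 5 gained and rno-miR-181a lost for old minus young in males, 10 member comparisons between classes were called instead of 6. The gains depend on the substitute for undetected values. On summed probe signals without both arrays none of the 5 was called, and the male differences of rno-miR-181d were 0.63 and 0.17, in the opposite direction. The median of all miRNAs on that measure, over all arrays, rose by more, 0.84 in males from 2 weeks to later ages.

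Variation between animals of the same age and sex was compared on summed probe signals after subtracting each group's mean, with permutations within groups. The 6 member pairs were tested as 1 family. Over all 88 arrays rno-miR-181b and rno-miR-181d correlated with Pearson's r = 0.962 (permutation p 1e-05, the smallest possible here, adjusted p 6e-05) and Spearman's rho = 0.753 (permutation p 1e-05). Leaving out the 2 arrays farthest from the median, which were the pair that stood apart, gave r = 0.889. That value is no separate check, since the group means had been subtracted with those arrays included. Without the pair that stood apart, r was 0.764 (permutation p 1e-05) and rho 0.623 (permutation p 1e-05) over 86 arrays, 0.710 when 2 more were left out, and 0.801 after removing group means within each scanning run. In that last version an array alone in its group and run, such as each 8-week male, is left at 0 and adds nothing. The median r over the 5253 pairs of miRNAs detected on every array was 0.180, a baseline of detected signals only. rno-miR-181d was detected on 12 of the 88 arrays, so most of its summed signals came from arrays that did not detect it. Both signals of an array are divided by the same percentile. rno-miR-181b and rno-miR-181d are made from hairpins on different chromosomes and differ in sequence only by C12U.

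The other pairs were less close. Without the pair of arrays that stood apart, rno-miR-181a and rno-miR-181b, which share their hairpin clusters, had r = 0.343 (permutation p 0.00153, adjusted p 0.00459) and rho = 0.405 (permutation p 0.00038). Over all 88 arrays that pair of miRNAs had r = 0.117 (permutation p 0.251) and rho = 0.311 (permutation p 0.00358), so the call by r rests on leaving those arrays out. rno-miR-181a and rno-miR-181c had r = 0.302 (permutation p 0.00987, adjusted p 0.0197) and rho = 0.349 (permutation p 0.00296). After removing group means within scanning runs r was 0.281 (permutation p 0.119) and 0.195 (permutation p 0.344), and rho was 0.434 (permutation p 0.0213, adjusted p 0.0638) and 0.275 (permutation p 0.156), so neither passed the adjusted test within runs. Fewer arrays carry that test, since those alone in their group and run add nothing, so an effect of the run cannot be read from it. rno-miR-181c and rno-miR-181d, neighbours on chromosome 19, had r = 0.116 (permutation p 0.328) and rho = 0.105 (permutation p 0.366). The r was −0.01 for rno-miR-181a with rno-miR-181d (permutation p 0.895) and 0.187 for rno-miR-181b with rno-miR-181c (permutation p 0.144).

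**Figure D5:**
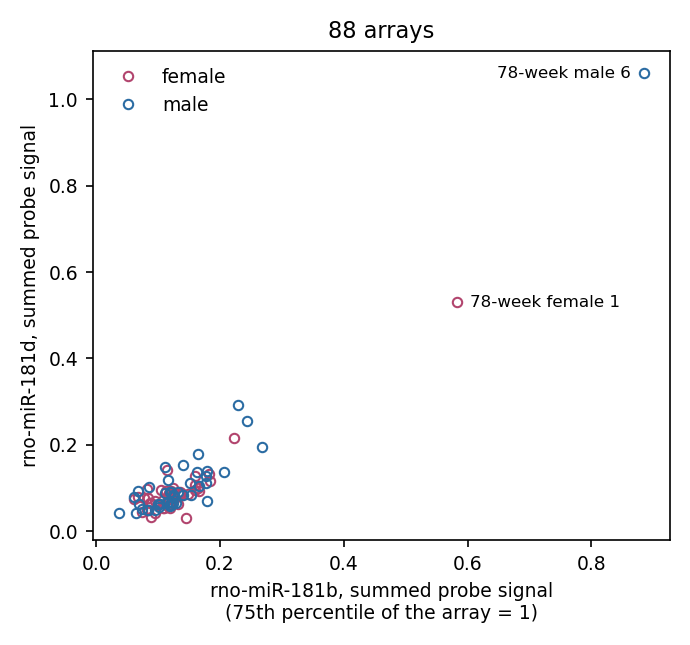
Summed probe signal of rno-miR-181d (vertical) against rno-miR-181b (horizontal), both divided by the array's 75th percentile, 1 point per array coloured by sex, with the arrays of 78-week female 1 and 78-week male 6 named beside their points. These arrays lie at 0.583 and 0.530, and at 0.884 and 1.06, and the r after removing group means was 0.962 over all arrays and 0.764 without them.

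The miRNAs whose age pattern was most like that of rno-miR-181a, by Pearson's r over the 18 group means of log2 levels among 102 other miRNAs detected on every array, were miR-322 (r = 0.771), miR-335 (r = 0.743) and miR-200b (r = 0.700). Over the 16 groups of 5 weeks and older these were 0.612, 0.587 and 0.621. For rno-miR-181b they were miR-335 (r = 0.726), miR-17-5p (r = 0.615) and miR-214 (r = 0.552), at 0.648, 0.471 and 0.403 over the later groups. rno-miR-181b was undetected on 42 arrays, and these entered its group means at the substitute value. In 52-week males no array detected it, so their mean log2 level was the substitute itself, −6.38. The r values of rno-miR-181b therefore also reflect how many arrays of each group detected it, and the part of this was not tested. Without the pair of arrays that stood apart the values over 18 groups were 0.776, 0.727 and 0.702 for rno-miR-181a and 0.775, 0.755 and 0.418 for rno-miR-181b. The median r over the 102 miRNAs was −0.479 for rno-miR-181a and −0.427 for rno-miR-181b, so most miRNAs detected on every array ran the other way over the groups. All values of an array share its scaling.

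Marker miRNAs of other cell types moved with the age classes too. In bulk liver, fewer cells of a type and less RNA per cell cannot be told apart. Of 4 hepatocyte miRNAs 3 were on the array, all were detected on every array, and all 3 rose from young to adult and from young to old rats in both sexes. Levels of a list are summed normalized intensities. Their summed level ranged from 560 to 674 in young, 653 to 1289 in adult and 691 to 1388 in old females, and from 399 to 429 in young, 634 to 1272 in adult and 685 to 1137 in old males. Of 7 leukocyte miRNAs 6 were on the array, and against young rats 4 rose in adult and old females, 5 in adult males and 6 in old males. Summed over the list, the level ranged from 6.87 to 8.64 in young, 9.73 to 21.0 in adult and 14.8 to 38.6 in old females, and from 5.27 to 8.51 in young, 11.9 to 19.4 in adult and 13.7 to 31.4 in old males. Both erythroid miRNAs rose in both sexes and both classes. The summed level of these ranged from 3.29 to 5.64 in young, 4.17 to 19.1 in adult and 6.45 to 17.5 in old females, and from 3.18 to 6.26 in young, 7.14 to 21.1 in adult and 7.41 to 28 in old males. Of 5 biliary miRNAs, 2 fell in adult females, 3 in old females and 2 in old males against young rats. Together they ranged from 3.25 to 4.20 in young, 0.534 to 4.22 in adult and 0.378 to 3.12 in old females, and from 2.52 to 3.70 in young, 1.06 to 5.26 in adult and 0.535 to 4.64 in old males. The biliary miR-200c was detected on 10 of 88 arrays. Neither endothelial miRNA was called in females, and 1 rose in adult males. As a sum, their level ranged from 15.7 to 21.0 in young, 14.7 to 24.0 in adult and 15.5 to 22.6 in old females, and from 13.4 to 17.6 in young, 17.0 to 23.8 in adult and 14.1 to 22.9 in old males. Of the 5 stellate and smooth muscle miRNAs likewise none was called in females and 1 rose in adult males. Their summed signal ranged from 11.8 to 14.0 in young, 12.1 to 23.6 in adult and 9.86 to 19.3 in old females, and from 8.96 to 12.8 in young, 11.2 to 22.7 in adult and 9.82 to 17.7 in old males. Of 4 skeletal muscle miRNAs, 3 fell in old females and none was called in males against young rats. Between adult and old rats 2 skeletal muscle miRNAs fell in females and 1 biliary miRNA fell in males, and no other marker was called. Summed, their level ranged from 0 to 5.27 in young, 0 to 21.0 in adult and 0 to 0.119 in old females, and from 0 to 2.89 in young, 0 to 65.3 in adult and 0 to 17.3 in old males. The part of any of these in the levels of rno-miR-181a and rno-miR-181c was not tested.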

How the data were processed

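Total RNA from liver tissue of 1 animal per array was labelled with Cy3 and hybridized to Agilent rat miRNA arrays in the original study. The authors extracted intensities with Agilent Feature Extraction, which subtracts background and gives each miRNA a total over its probes, with 0.1 in place of a total where no probe was detected. The processed table deposited by the authors holds the ratio of that total to the 75th percentile of the array, and 1 of its 15763 detected values differed by more than 0.01% from the ratio recomputed here. The authors' processing batches were not given in the sample labels, so scanning runs were used instead. Arrays were separate animals by the labels, and 0 pairs of arrays held identical values. The number of arrays per group limits the precision. Some arrays (17) carried later names for the same probes, and these were joined by probe.

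Here each total gene signal was divided by the array's 75th percentile over the 314 expressed miRNAs (rank 236), miRNAs not detected took the smallest normalized intensity measured (0.0120), and log2 values were tested with lmFit and eBayes of limma 3.58.1 (R 4.3.3, Benjamini-Hochberg over 314 miRNAs) and with scipy 1.17.1 in Python 3.11.15 (Fisher's exact test and 100000 permutations). A call needed an adjusted p below 0.05 and 1.5-fold, an age F test also a pair of ages past both, and an interaction the adjusted p alone. The fits were tested on simulated data. Alternatives were other substitutes for undetected values, other scalings, quantile normalization, normexp background correction (on median spot signals, offset 50), the mean processed signal, a filter on detection, blocks for scan, slide and replicate number, and each array left out. The summed probe signal and the fit without the pair of arrays that stood apart were added after the data had been seen. A planned correlation over at least 60 arrays that detected both members could not be run, since at most 46 did, and summed probe signals replaced it. Named miRNAs were the 4 members, the other strands of their hairpins, the 3 miRNAs most like each member detected on at least 50% of the arrays, and the marker lists. The members and lists were chosen with earlier results of these data known.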

Additional observations from a re-analysis of the deposited data

Results flagged for a closer look

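Within each group of 4 or 5 arrays, the highest and the lowest value of each member were compared with the other arrays of the group by Dixon's ratio at its 95% critical value. The values were normalized intensities for rno-miR-181a and summed probe signals for the other members. Of 72 groups tested, 11 held an array far from the others, where chance gives about 1 in 20. None of these concerned rno-miR-181a.

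For rno-miR-181b, 78-week female 1 read 0.583 (the other 4 arrays 0.0745 to 0.115) and 78-week male 6 read 0.884 (the others 0.0615 to 0.121). In 52-week males, replicate 1 read 0.229 (the others 0.0830 to 0.120), and in 21-week females replicate 6 was low at 0.0817 (the others 0.113 to 0.125). For rno-miR-181d the same 78-week arrays were high, female 1 at 0.530 (the others 0.0422 to 0.141) and male 6 at 1.06 (the others 0.0490 to 0.0794). 52-week male 1, high for rno-miR-181b, was also high for rno-miR-181d at 0.293 (the others 0.0494 to 0.118).

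For rno-miR-181d, 104-week female 2 was high at 0.216 (the others 0.0624 to 0.0925), 8-week male 5 was high at 0.256 (the others 0.0937 to 0.127), and 6-week female 1 was low at 0.0305 (the others 0.0777 to 0.0945). For rno-miR-181c, 78-week male 6, high for rno-miR-181b and rno-miR-181d, was low at −0.166 (the others 0.0345 to 0.0879), a value below 0 because background was subtracted.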

How the results depend on the processing

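Calls depended on the value given to undetected miRNAs and on the scaling, and the cause was not tested. Over the 9 ages 2 members were called in each sex, where the share of all miRNAs called ranged over the alternatives from 47.5% to 75.2% in females and from 48.1% to 80.6% in males. In females 1 was called with arrays scaled on all miRNAs of the array, under normexp correction, and with miRNAs detected on at least 50% of the arrays. In males 1 was called with the raw minimum or the array's lowest detected value as substitute, under quantile normalization, under normexp, with that filter, and on summed probe signals with or without the pair of arrays that stood apart, and 0 on the mean processed signal. Over 5 to 104 weeks 0 members were called in females, against 1 with the array's lowest detected value as substitute, with scaling on the miRNAs detected on every array, on summed probe signals or without the pair of arrays, and 2 on summed probe signals without them. Of all miRNAs 22.9% were called there, against 30.6%, 23.9%, 25.5%, 22.9% and 27.4% in that order. In males 1 was called (18.8% of all miRNAs), against 0 with scaling on all miRNAs, under normexp (2.87% each) and on the mean processed signal (19.4%). Of the class comparisons 6 were called, against 14 with scaling on miRNAs detected on every array, 10 without the pair of arrays, 3 under quantile normalization, 2 with the filter and 0 under normexp. Over all miRNAs and class comparisons 32.3% were called, against 27.7%, 32.8%, 29.5%, 38.7% and 11.7% in the same order. No sex difference was called, against 1 with the array's lowest detected value and 1 with scaling on all miRNAs, while 6.09%, 9.31% and 6.62% of all miRNAs and ages were called. Of the 6 correlations 2 passed over all arrays and 3 without the pair of arrays, also with scaling on miRNAs detected on every array, against 1 after removing group means within scanning runs. None of the interactions was called under any alternative.

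Of the differences called by either setting, 7 turned in direction. With scaling on all miRNAs rno-miR-181a gave 0.044 (old minus young, females), 0.92 and 0.55 (adult and old minus young, males). Under normexp rno-miR-181c gave 0.31 and 0.18 in females and 0.39 and 0.30 in males for adult and old minus young. The median of all miRNAs under normexp rose by 0.39 in females and 0.47 in males from 2 weeks to later ages. Uncalled differences turned as well. With scaling on all miRNAs rno-miR-181a gave 0.27 for adult minus young females, and under normexp adult minus young was 0.33 and 0.40 for rno-miR-181b and 0.41 and 0.48 for rno-miR-181d in females and males. With each array left out in turn, counts of members called were 2 to 2 over the 9 ages in either sex, 0 to 1 (females) and 1 to 1 (males) over 5 to 104 weeks, 5 to 9 between classes, 0 to 0 for sex and interaction, and 2 to 3 for detection.

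Replicate numbers were not taken to pair the samples. Arrays of the same number and age correlated at over 0.1 in 17 of 33 pairs (mean r 0.07, against −0.01 for other numbers), and pairing was not tested. With the replicate number as a block, 2 members were called over the 9 ages in each sex, 1 over 5 to 104 weeks in each sex, 5 class comparisons, and 0 sex differences or interactions.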
